A study of Mus musculus with 12 samples.

Results

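Fgd5, its 5 relatives Fgd1, Fgd2, Fgd3, Fgd4 and Fgd6, their substrate Cdc42, and the Cdc42-binding proteins Cdc42ep3, Cdc42ep4 and Cdc42bpb were followed across hematopoietic stem cells (HSCs) of old and young mice. The members were taken by gene name, and these 10 genes of 14143 in the deposited table were all present. Expression was measured by RNA sequencing and is given as FPKM, fragments counted per unit of transcript length and of library size. The mice were female C57BL6J animals, with no transgene or deletion named in the labels. Old My-HSCs and old Ly-HSCs came from mice of 18 months, supplied by the National Institute on Aging colony. Young My-HSCs and young Ly-HSCs came from mice of 8 to 10 weeks by the sample labels, while the protocol gives an upper limit of 12 weeks. Both subsets were negative for lineage markers, CD48 and CD135 and positive for Sca-1 and c-kit. CD150 staining then separated the myeloid-biased My-HSCs, which were CD150 high, from the lymphoid-biased Ly-HSCs, which were CD150 low. Each of the 4 groups had 3 libraries, each from an independent group of mice, so the error within a group is that between pools of animals. Independence between the old subsets was not established, because old My-HSC and old Ly-HSC libraries of the same number deviated together (correlations of 0.21 to 0.26). The main model treats all libraries as independent.

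Cdc42 is a small GTPase that organises the actin cytoskeleton and cell polarity. It is active while bound to GTP, and guanine nucleotide exchange factors such as the Fgd proteins load it with GTP. The Fgd proteins share a catalytic Dbl homology domain with pleckstrin homology and FYVE lipid-binding domains. Fgd5 transcription marks stem cells in mouse bone marrow, where it serves as a reporter locus, and the gene is also active in endothelial cells. Higher Cdc42 activity and loss of polarity have been described in aged mouse HSCs, but activity is a property of the protein and was not measured here.

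The identity of the sorted cells was checked with marker genes. Of 13 listed HSC genes, 10 had values, and their summed level was 548 to 615 FPKM in old My-HSCs, 551 to 581 FPKM in young My-HSCs, 389 to 445 FPKM in old Ly-HSCs and 413 to 548 FPKM in young Ly-HSCs. That sum includes Fgd5. Slamf1, which encodes the sorted antigen CD150, was at 26.4, 35.3 and 31.0 FPKM in old My-HSCs, against 1.78, 8.33 and 6.47 FPKM in old Ly-HSCs. It was at 34.0, 20.9 and 15.0 FPKM in young My-HSCs, against 4.87, 1.39 and 1.70 FPKM in young Ly-HSCs, so the subset labels held in every library. Library 1 of both old groups stood apart in markers of mature blood cells. Itgam, a myeloid integrin, was at 125 FPKM in old My-HSC library 1 and at 160.0 FPKM in old Ly-HSC library 1, against at most 32.9 FPKM in the other 10 libraries. Estimated depth was 13900000 to 18200000 fragments in old My-HSCs, 13500000 to 14400000 in young My-HSCs, 11300000 to 19600000 in old Ly-HSCs and 6500000 to 12700000 in young Ly-HSCs. In such bulk samples, fewer cells of a type and less RNA per cell cannot be told apart.

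Fgd5 lies on chromosome 6 of GRCm38 at 91978878-92076004 on the plus strand, and an antisense transcript crosses the gene without sharing exon sequence. Cdc42bpb lies on chromosome 12 at 111292976-111377718, and Cdc42 on chromosome 4 at 137319696-137357720, both on the minus strand. The sequences just before their starts are shown because these 3 members had the clearest separation between groups. They are RefSeq promoters of the GRCm38.p6 build, read 5′ to 3′ on the strand of the gene, and capitals mark GC boxes, the letters GGGCGG or their complement CCGCCC. The Fgd5 sequence is chr6:91978715-91978877, the Cdc42bpb sequence is chr12:111377719-111377968 and the Cdc42 sequence is chr4:137357760-137358009.
Fgd5: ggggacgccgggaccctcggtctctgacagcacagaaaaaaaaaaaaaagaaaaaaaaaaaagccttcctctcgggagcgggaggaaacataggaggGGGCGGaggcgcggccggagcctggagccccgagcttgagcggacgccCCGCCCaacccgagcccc
Cdc42bpb: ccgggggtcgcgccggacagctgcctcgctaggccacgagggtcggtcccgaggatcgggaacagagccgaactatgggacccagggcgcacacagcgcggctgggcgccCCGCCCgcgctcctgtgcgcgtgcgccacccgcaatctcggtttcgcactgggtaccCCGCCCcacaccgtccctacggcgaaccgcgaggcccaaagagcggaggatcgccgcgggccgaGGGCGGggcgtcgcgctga
Cdc42: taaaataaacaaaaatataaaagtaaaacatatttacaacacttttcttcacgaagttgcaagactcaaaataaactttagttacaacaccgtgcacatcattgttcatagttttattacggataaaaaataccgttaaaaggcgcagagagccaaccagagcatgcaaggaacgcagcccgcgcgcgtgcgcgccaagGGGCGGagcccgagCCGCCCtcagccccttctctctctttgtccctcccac
The full windows of 250 bases before the RefSeq start held 5 GC boxes for Fgd5, 3 for Cdc42bpb and 2 for Cdc42, and the printed Fgd5 stretch, which ends where the GENCODE gene begins, held 2 of its 5. Of 32536 promoter windows of that length, 33.0% held a GC box. GC content was 71.6% for Fgd5, 74.4% for Cdc42bpb and 45.2% for Cdc42, against a median of 52.4% over all windows. Searches on both strands for the GATA core GATAA, the Runx core TGTGGT and the Ets core CCGGAA, none of which overlaps the GC box, found only GATAA in Cdc42 and nothing in Fgd5 or Cdc42bpb. Those motifs were present in 22.5%, 14.0% and 12.1% of all windows, in that order.

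Fgd5, an exchange factor for Cdc42, was higher in My-HSCs than in Ly-HSCs at both ages, and lowest in old Ly-HSCs. Its level was 61.0, 60.4 and 59.8 FPKM in old My-HSCs, against 23.7, 25.5 and 25.1 FPKM in old Ly-HSCs. It was 65.7, 61.3 and 72.3 FPKM in young My-HSCs, against 42.9, 42.4 and 38.1 FPKM in young Ly-HSCs. Every My-HSC library was above every Ly-HSC library, and in both subsets the old libraries lay below the young ones. By group the level averaged 60.4 ± 0.604 FPKM in old My-HSCs, 66.5 ± 5.55 FPKM in young My-HSCs, 24.8 ± 0.964 FPKM in old Ly-HSCs and 41.2 ± 2.63 FPKM in young Ly-HSCs (SD, n = 3 each). The mean in My-HSCs was 2.44 times that in Ly-HSCs among old mice and 1.62 times among young mice. From high to low the order was young My-HSCs, old My-HSCs, young Ly-HSCs and old Ly-HSCs, and no neighbours overlapped. The gap between the lowest young My-HSC library and the highest old My-HSC library, 61.3 against 61.0 FPKM, was however far smaller than the SD of the young group.

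**Figure D1:**
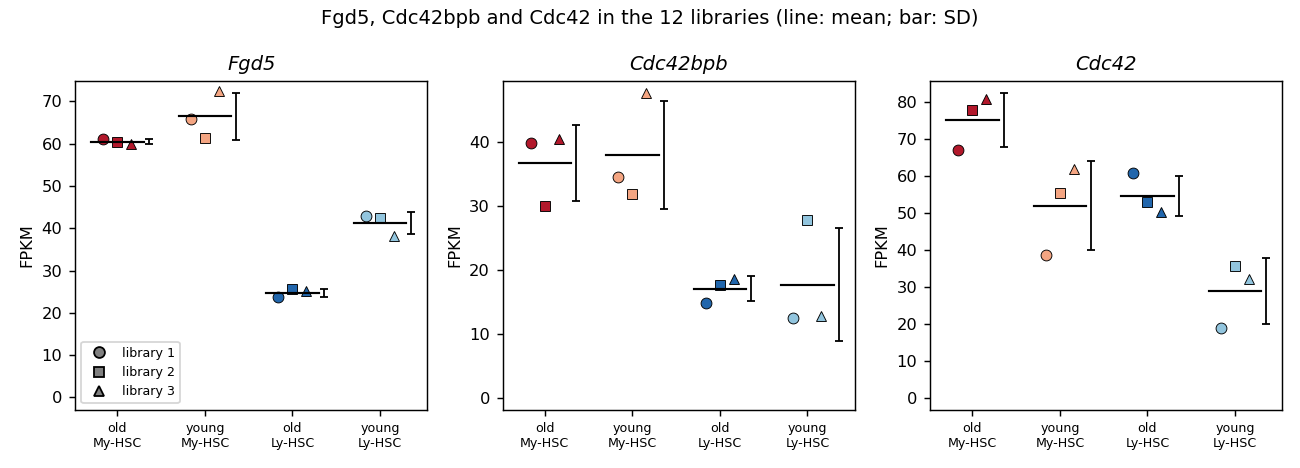
Level in FPKM on linear axes of Fgd5, Cdc42bpb and Cdc42 in each of the 12 libraries, with the group mean as a line and the SD as a bar (n = 3). Fgd5 and Cdc42bpb are higher in all 6 My-HSC libraries than in all 6 Ly-HSC libraries, and Cdc42 is higher in the old libraries of each subset than in the young ones.

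The subset difference of Fgd5 passed the test over all genes. With limma on log2(FPKM + 1) and Benjamini-Hochberg adjustment over 10900 genes, old My-HSCs exceeded old Ly-HSCs by 1.25 ± 0.17 on the log2 scale (SE, adjusted p = 0.0233, higher in all 3 old My-HSC libraries). Fgd5 was 1 of 3 genes called there, and 0.0275% of tested genes were called. The others were Clu, a secreted chaperone, higher in old My-HSCs, and Runx3, a transcription factor, lower in them. Libraries of the same number deviated together in the old groups, and with the number as a block Fgd5 kept its difference of 1.25 but lost the call (limma, adjusted p = 0.123). The call was also lost when any 1 old library or young My-HSC library 2 was left out, with values of 1.22 to 1.28 over the 12 omissions and adjusted p of 0.00970 to 0.250. Without library 1 of every group the difference was 1.22 (adjusted p = 0.132).

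Averaged over both ages, Fgd5 was 0.97 ± 0.12 higher in My-HSCs on the log2 scale (limma, adjusted p = 0.00476, n = 6 libraries each). It was the only member among the 45 genes called in this contrast, or 0.413% of those tested. This call held in all alternatives run, with an adjusted p of 0.0132 with the replicate block and 0.0228 without library 1 of every group. It came closest to the threshold with a block within each age, chosen after seeing the data (limma, adjusted p = 0.0446). In young mice alone the difference was 0.68 ± 0.17 (limma, adjusted p = 0.113) and was not called, where 0.119% of genes were called. The difference between the 2 ages in this subset effect was 0.58 ± 0.24 (limma, unadjusted p = 0.0296, adjusted p = 0.864), so a larger subset effect in old mice did not pass the test over all genes. No gene was called in that interaction by limma, while 616 genes (5.65% of those tested), 2 of them members, had an unadjusted p under 0.05.

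Age differences of Fgd5 were not called in either subset. In Ly-HSCs the old mean was 0.602 times the young mean, a difference of -0.71 ± 0.17 on the log2 scale (limma, adjusted p = 0.113). In My-HSCs the ratio was 0.909 and the difference -0.13 ± 0.17 (limma, adjusted p = 0.958). The mean over subsets was -0.42 ± 0.12 (limma, adjusted p = 0.128). The mean was not called either, where 0.349%, 0.211% and 0.844% of genes were called in Ly-HSCs, in My-HSCs and in their mean. An exact permutation test of Fgd5 alone, with age labels exchanged within each subset, gave p = 0.005 two-sided, the smallest its 400 arrangements allow. Labels were exchanged separately in each subset, which takes old My-HSC and old Ly-HSC libraries as independent. That independence was not established, so the p-value may be too small. After median-of-ratios scaling of the libraries this permutation test gave p = 0.01, no longer the smallest possible. The same test was run for each of the 10 members, and these p-values are not adjusted.

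Fgd5 varied little between libraries of a group. Its SD within groups was 0.08 on the log2 scale, against a median of 0.34 for the 1287 genes within 0.5 log2 units of its level, of which 0.233% varied less. The other 9 members were closer to genes of their own level, with 16.8% to 85.7% of such genes varying less than they did. The Fgd5 values rest on an estimated 1683 to 6922 fragments a library.

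**Figure D2:**
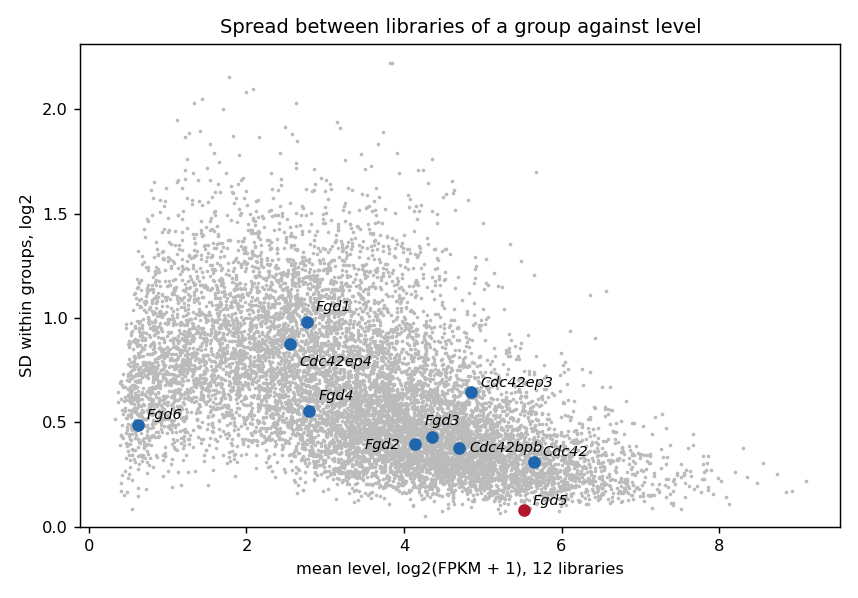
SD within groups against mean level, both on the log2(FPKM + 1) scale over 12 libraries, for the 10900 tested genes in grey and the members in colour. Fgd5, in red, lies at the lower edge of the cloud at its level with an SD of 0.08, and the 9 other members lie inside it.

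Fgd5 was also set against the other exchange factors within each library, where library scaling cancels. It made up 54.6 ± 5.85% of the summed FPKM of the 6 Fgd genes in old My-HSCs, 56.9 ± 4.01% in young My-HSCs, 33.6 ± 2.57% in old Ly-HSCs and 42.8 ± 9.95% in young Ly-HSCs (SD, n = 3 each). In every group it was the most abundant Fgd transcript by mean FPKM.

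The other Fgd genes had lower levels and no call in any of the 7 contrasts. Fgd3, a close relative of Fgd1 that remodels actin, was at 35.7, 21.0 and 16.0 FPKM in old My-HSCs, 22.1, 23.5 and 26.6 FPKM in young My-HSCs, 23.7, 16.9 and 16.7 FPKM in old Ly-HSCs and 10.2, 22.3 and 11.5 FPKM in young Ly-HSCs. Its highest value was in old My-HSC library 1, which also had high Itgam, and the part of the myeloid transcripts in it was not tested. Averaged over ages Fgd3 differed by 0.51 ± 0.25 between My-HSCs and Ly-HSCs on the log2 scale (limma, adjusted p = 0.467), with overlapping groups. Fgd2, an exchange factor known from antigen-presenting cells, ranged over 12.0 to 15.2 FPKM in old My-HSCs, 12.6 to 18.9 FPKM in young My-HSCs, 15.1 to 19.5 FPKM in old Ly-HSCs and 12.9 to 35.5 FPKM in young Ly-HSCs. Its mean subset difference was -0.41 ± 0.24 (limma, adjusted p = 0.579), the opposite sign to Fgd5, and -0.25 without young Ly-HSC library 2. Its groups overlapped.

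Fgd4, also called frabin, binds actin filaments and is altered in a human form of Charcot-Marie-Tooth disease. It was at 1.13, 4.69 and 5.72 FPKM in young My-HSCs, against 11.4, 10.4 and 5.34 FPKM in young Ly-HSCs, and these groups overlapped. The difference was -1.15 ± 0.51 on the log2 scale (limma, adjusted p = 0.341), and -0.64 without young My-HSC library 1. In old mice Fgd4 was at 8.74, 4.90 and 5.68 FPKM in My-HSCs and at 6.02, 7.45 and 6.81 FPKM in Ly-HSCs, also overlapping.

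Fgd1, altered in human Aarskog-Scott syndrome, ranged over 4.89 to 7.33 FPKM in old My-HSCs and 6.56 to 7.64 FPKM in young My-HSCs. In Ly-HSCs it scattered far more, over 0.851, 4.55 and 10.3 FPKM in old and 1.81, 7.61 and 19.4 FPKM in young mice, with library 1 lowest in both. Exons of Fgd1 overlap those of Tsr2 on the other strand, and no source used here says whether counting used strand, which leaves its values uncertain. The same limit holds for Cdc42ep3, whose exons overlap a long noncoding RNA, and for Cdc42bpb, whose exons overlap an antisense transcript.

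Fgd6, an exchange factor studied in endothelial cells and bone-resorbing cells, was the scarcest member. It was at 1.09, 0.437 and 1.06 FPKM in old My-HSCs, against 0, 0.807 and 0 FPKM in young My-HSCs. In Ly-HSCs it was at 2.46, 0.311 and 0.788 FPKM in old mice, against 0, 0.242 and 0.588 FPKM in young mice. It passed the filter on low values only through 3 old libraries, so it had to lean towards old mice. The mean age difference was 0.64 ± 0.33 on the log2 scale (limma, adjusted p = 0.404), and it was 1.94 with a pseudocount of 0.1 and -0.08 after quantile normalization.

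**Figure D3:**
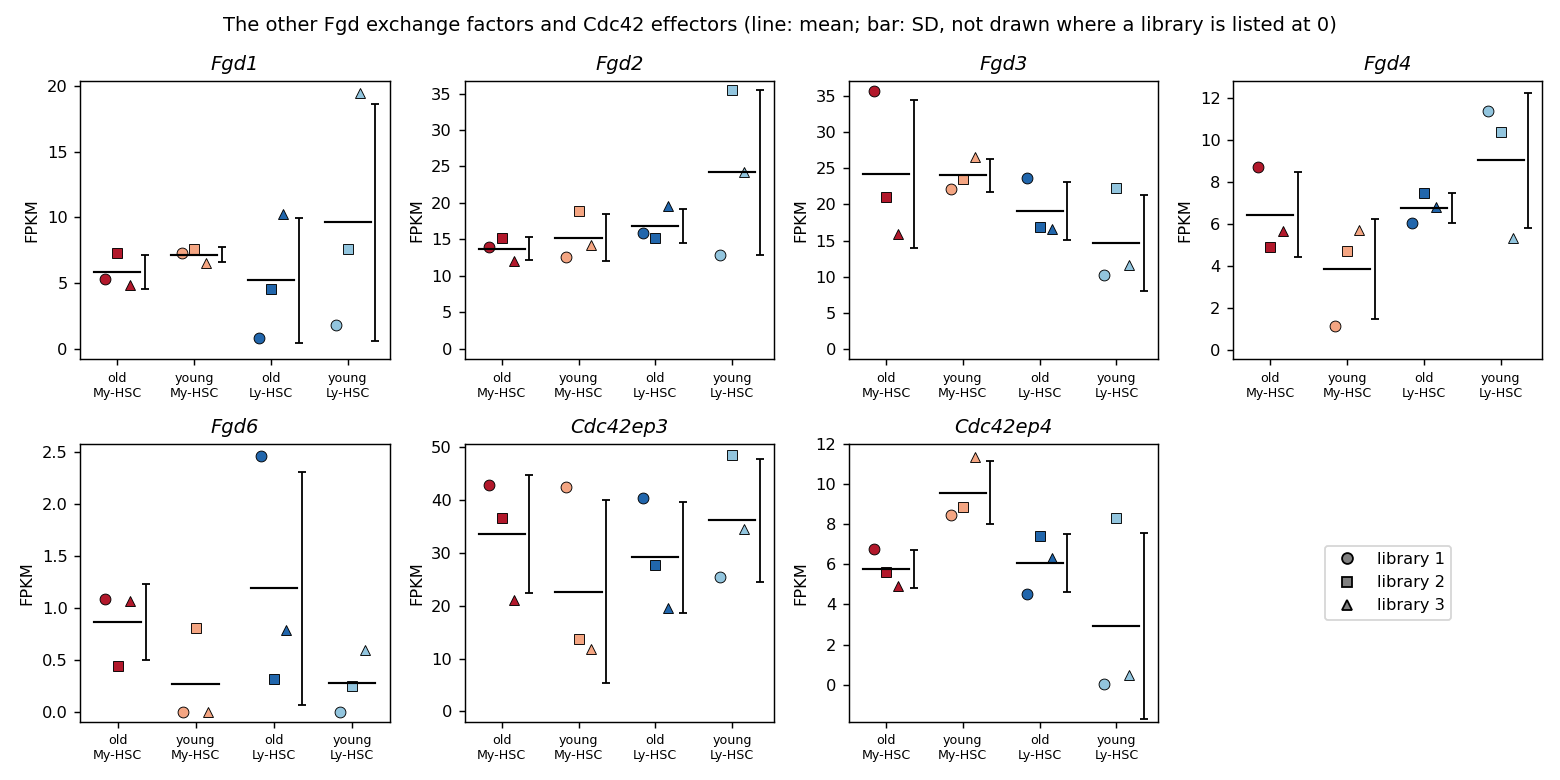
Level in FPKM on linear axes of the 7 other members in each of the 12 libraries, with the group mean as a line and the SD as a bar (n = 3, no bar where a library is listed at 0). Most groups overlap, and Cdc42ep4 is spread from 0.0417 to 8.29 FPKM among the 3 young Ly-HSC libraries.

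Cdc42 itself was higher in old than in young cells of both subsets, the opposite direction to Fgd5. It was at 66.9, 77.8 and 80.7 FPKM in old My-HSCs, against 38.5, 55.4 and 61.9 FPKM in young My-HSCs. In Ly-HSCs it was at 60.7, 52.8 and 50.1 FPKM in old mice, against 18.9, 35.7 and 32.0 FPKM in young mice. Neither pair of groups overlapped, and at both ages My-HSC libraries also lay above Ly-HSC libraries. The means were 75.1 ± 7.32 FPKM in old My-HSCs, 51.9 ± 12.1 FPKM in young My-HSCs, 54.5 ± 5.49 FPKM in old Ly-HSCs and 28.9 ± 8.85 FPKM in young Ly-HSCs (SD, n = 3 each). From high to low the order was old My-HSCs, old Ly-HSCs, young My-HSCs and young Ly-HSCs, and the 2 middle groups overlapped.

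None of these Cdc42 differences was called over all genes. With limma, old exceeded young by 0.94 ± 0.25 on the log2 scale in Ly-HSCs (adjusted p = 0.143), or 0.59 without library 1 of every group, and by 0.55 ± 0.25 in My-HSCs (adjusted p = 0.690), or 0.35 without young My-HSC library 1. Their mean was 0.74 ± 0.18 (adjusted p = 0.0821), with an adjusted p of 0.0400 to 0.209 over the 12 fits that each left out 1 library and a value of 0.83 at the lowest, which omitted young Ly-HSC library 2. The exact permutation test of Cdc42 alone gave p = 0.005 two-sided, again the smallest possible and again taking the old subsets as independent. Between subsets, My-HSCs exceeded Ly-HSCs by 0.85 ± 0.25 in young mice (limma, adjusted p = 0.175), by 0.46 ± 0.25 in old mice (adjusted p = 0.99998) and by 0.65 ± 0.18 on average (adjusted p = 0.150). The age effect differed between subsets by -0.39 ± 0.36 (limma, adjusted p = 0.957), with values of -0.59 to -0.12 when 1 library was left out.

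Since Fgd5 and Cdc42 lay in opposite directions with age, their ratio within a library was taken, a choice made after their values were seen. Cdc42 over Fgd5 was 1.10, 1.29 and 1.35 in old My-HSCs, against 0.586, 0.904 and 0.855 in young My-HSCs. In Ly-HSCs the ratio was 2.56, 2.07 and 2.00 in old mice, against 0.439, 0.841 and 0.840 in young mice. Every old library was above every young library of both subsets. The ratio was 2.29 times higher in old cells as a geometric mean over subsets. Since neither gene's ages overlapped in either subset and the directions were opposite, the ratio had to separate the ages within each subset, and it is given as a description with no test.

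Among the proteins that bind active Cdc42, Cdc42bpb separated the subsets like Fgd5. It encodes MRCK beta, a kinase that acts on myosin light chain regulation downstream of Cdc42. It was at 39.8, 29.95 and 40.5 FPKM in old My-HSCs, against 14.9, 17.7 and 18.6 FPKM in old Ly-HSCs. It was at 34.6, 31.8 and 47.6 FPKM in young My-HSCs, against 12.5, 27.8 and 12.7 FPKM in young Ly-HSCs. All 6 My-HSC libraries were above all 6 Ly-HSC libraries, though young Ly-HSC library 2 came close to the lowest of them. The mean over My-HSCs was 2.15 times that over Ly-HSCs. Averaged over ages the difference was 1.10 ± 0.22 on the log2 scale and just missed the threshold (limma, adjusted p = 0.0512). It was 1.06 ± 0.31 in old mice (adjusted p = 0.580) and 1.14 ± 0.31 in young mice (adjusted p = 0.141). Omissions of 1 library gave 1.00 to 1.28 for the mean difference (limma, adjusted p = 0.00764 to 0.193), and only the fit without young Ly-HSC library 2 called it. That fit also called the difference in young mice, at 1.50 (adjusted p = 0.0198). With the replicate block the mean difference had an adjusted p of 0.0958, and without library 1 of every group it was 0.96 (adjusted p = 0.190).

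The Borg proteins Cdc42ep3 and Cdc42ep4 bind Cdc42 and septins and act on actin fibres. Cdc42ep3 was at 42.7, 36.5 and 21.1 FPKM in old My-HSCs, 42.5, 13.6 and 11.8 FPKM in young My-HSCs, 40.3, 27.6 and 19.5 FPKM in old Ly-HSCs and 25.4, 48.4 and 34.4 FPKM in young Ly-HSCs. All 4 groups overlapped, and library 1 was the highest in 3 of the 4 groups. Its difference was -0.84 ± 0.45 between young My-HSCs and young Ly-HSCs (limma, adjusted p = 0.432) and 0.72 ± 0.45 between old and young My-HSCs (adjusted p = 0.856). Both changed in size, but not in sign, when single libraries were left out. Without young My-HSC library 1 they were -1.39 and 1.28, and without young My-HSC library 3 they were -0.51 and 0.39. Cdc42ep4 was at 6.76, 5.63 and 4.91 FPKM in old My-HSCs, against 8.46, 8.86 and 11.4 FPKM in young My-HSCs, without overlap. In Ly-HSCs it was at 4.51, 7.38 and 6.33 FPKM in old mice, against 0.0417, 8.29 and 0.469 FPKM in young mice, and 2 of these young libraries were far below the third. The lowest value corresponds to about 1 fragment.

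The fitted Cdc42ep4 differences were large and imprecise. Young My-HSCs exceeded young Ly-HSCs by 2.11 ± 0.67 on the log2 scale (limma, adjusted p = 0.206), and old Ly-HSCs exceeded young Ly-HSCs by 1.53 ± 0.67 (adjusted p = 0.348). Over the 12 fits that each left out 1 library, the subset difference was 1.50 to 3.08 (adjusted p = 0.0106 to 0.346) and the age difference 0.92 to 2.49 (adjusted p = 0.0199 to 0.563). The upper values came without young Ly-HSC library 2, the only omission that gave a call, and the lower ones without young Ly-HSC library 1. The age difference in Ly-HSCs was 2.79 with a pseudocount of 0.1 and 0.57 after quantile normalization. In My-HSCs the age difference was -0.64 ± 0.67 (limma, adjusted p = 0.948), and the age effect differed between subsets by -2.17 ± 0.95 (adjusted p = 0.864).

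**Figure D4:**
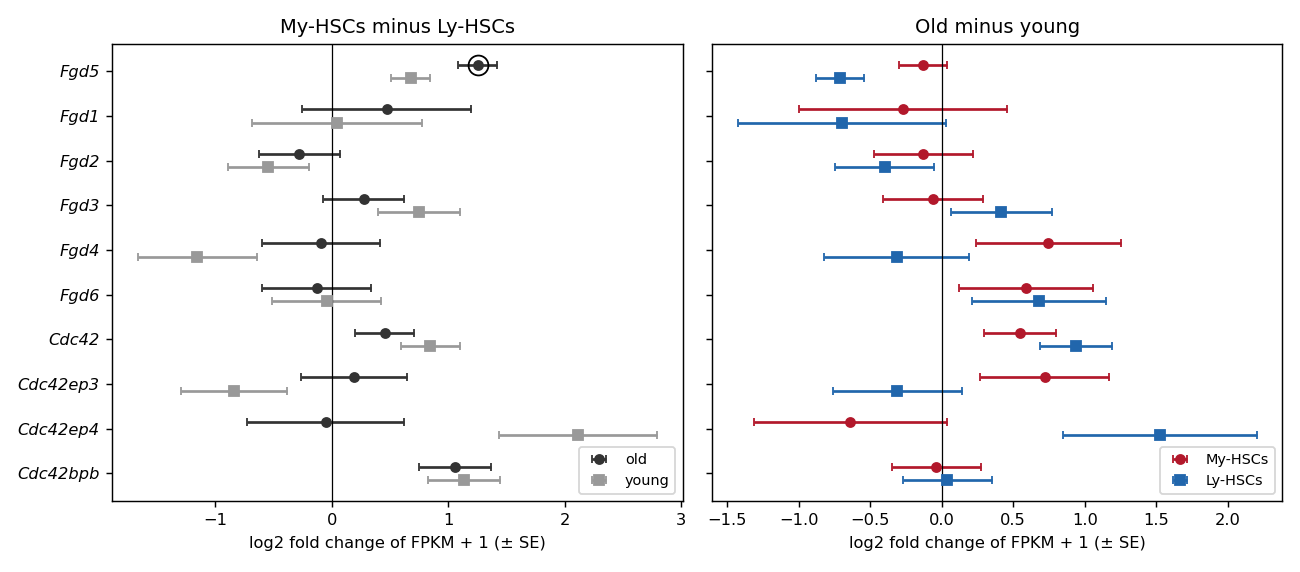
Log2 fold change of FPKM + 1 with its SE for the 10 members, My-HSCs minus Ly-HSCs on the left (old black, young grey) and old minus young on the right (My-HSCs red, Ly-HSCs blue). The circle marks the single call at an adjusted p under 0.05, Fgd5 at 1.25 in old mice, and only Cdc42 is clear of 0 on the positive side in all 4 comparisons by more than 1 SE.

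As a group the 10 members did not move one way. Groups did not overlap for 2 members between old and young Ly-HSCs, where 16% of all tested genes did not overlap, and for 3 members between old and young My-HSCs, where the share was 19.1%. Between subsets this held for 3 members in old mice and 4 in young mice, where the shares were 16.7% and 13.4%. Fgd5 and Cdc42bpb were higher in every My-HSC library than in every Ly-HSC library, as were 0.798% of tested genes. The median log2 difference of the members was 0.23 between subsets in old mice and 0.36 in young mice, against 0.02 and 0.13 over all genes. With age it was -0.05 in My-HSCs and -0.14 in Ly-HSCs, against 0.07 and 0.18 over all genes.

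A wider list of Cdc42 regulators, relatives and effectors, which did not include the called member Fgd5, had 90 genes. Of these 84 had values and 72 were tested. None was called by limma in any of the 7 contrasts, where at most 0.844% of all tested genes were called. In each contrast 4 to 9 of the 72 had an unadjusted p under 0.05. With age these were 4 of 72 in Ly-HSCs, in My-HSCs and over both, where 13.3%, 7.21% and 14.7% of all tested genes were under that value. Between subsets they were 4 in old mice, 6 in young mice and 9 over both ages, where 4.03%, 13.8% and 11.2% were. In the interaction they were 5, where 5.65% were. Of the 72, 37 were higher in old than in young My-HSCs and 35 in old than in young Ly-HSCs, with medians of 0.01 and -0.02 on the log2 scale. Over all tested genes the shares higher in old cells were 55.8% in My-HSCs and 62.4% in Ly-HSCs, with medians of 0.07 and 0.18. My-HSCs exceeded Ly-HSCs for 38 of the 72 in old mice and 36 in young mice, against 52.0% and 59.2% of all tested genes. Among the genes named from this list, Rhoj had the smallest adjusted p in the 4 single age and subset contrasts. It encodes a GTPase closely related to Cdc42 and active in endothelium. Rhoj was at 5.51, 3.29 and 1.96 FPKM in young My-HSCs and was listed at 0 in all 3 young Ly-HSC libraries (limma, adjusted p = 0.0850). It was at 2.87, 5.65 and 6.58 FPKM in old My-HSCs, against 1.13, 2.58 and 1.89 FPKM in old Ly-HSCs.

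Iqgap2, a scaffold that binds active Cdc42, was at 212, 194 and 209 FPKM in old My-HSCs, against 305, 295 and 343 FPKM in old Ly-HSCs. That difference was -0.61 ± 0.13 on the log2 scale (limma, adjusted p = 0.209), and the groups did not overlap. Old My-HSCs were also below young My-HSCs, which had 278, 286 and 295 FPKM, by -0.48 ± 0.13 (limma, adjusted p = 0.300). Rac1, a small GTPase that drives membrane ruffling, differed by 0.73 ± 0.23 between old and young My-HSCs (adjusted p = 0.406). Fnbp1l, a Cdc42 effector that bends membranes, differed by 0.95 ± 0.27 between old and young Ly-HSCs (adjusted p = 0.174). Diaph3, a formin that extends actin filaments, differed by 0.91 ± 0.25 between young My-HSCs and young Ly-HSCs (adjusted p = 0.141), and Dock10, a Cdc42 exchange factor outside the Fgd family, by -0.82 ± 0.26 in old mice (adjusted p = 0.701).

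The genes whose levels followed Fgd5 most closely were ranked by Pearson's r on log2(FPKM + 1) over the 12 libraries among 8350 genes with a mean of at least 5 FPKM. Part of such a correlation is the difference between the 4 groups, which all points share. Mllt3, a chromatin reader of the super elongation complex, came first with r = 0.98. Its mean was 46.4 ± 3.37 FPKM in old My-HSCs, 49.1 ± 6.59 FPKM in young My-HSCs, 22.4 ± 1.34 FPKM in old Ly-HSCs and 33.6 ± 3.16 FPKM in young Ly-HSCs (SD, n = 3 each), in the same order as Fgd5. Gucy1a3, a soluble guanylate cyclase subunit, had r = 0.90, and Ctnnal1, an alpha-catenin relative also on the HSC marker list, had r = 0.86. Plag1, a zinc finger transcription factor, followed with r = 0.85 and Spaca6, a sperm membrane protein, with r = 0.84. Among the members Cdc42bpb had r = 0.79 with Fgd5, and the other 8 had -0.39 to 0.36.

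**Figure D5:**
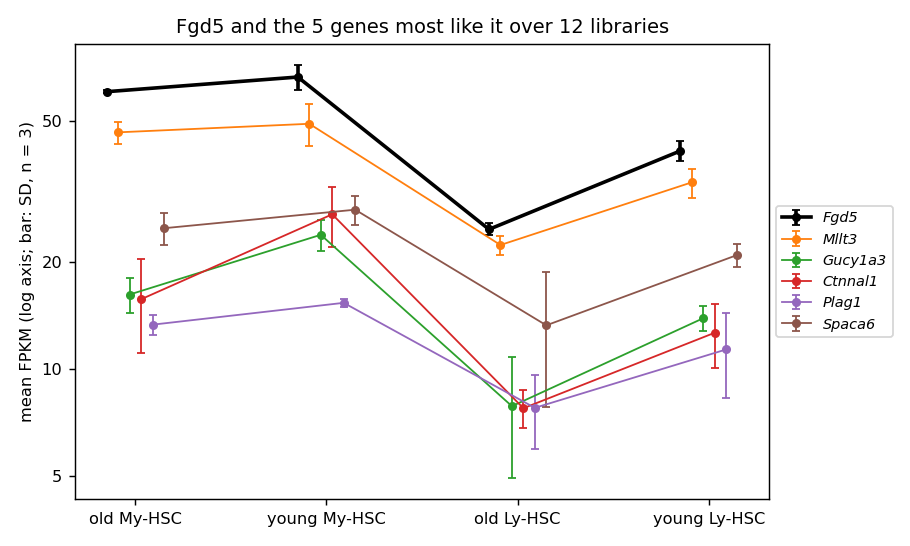
Mean FPKM on a log axis, with SD (n = 3), of Fgd5 and the 5 genes with the highest correlation with it over 12 libraries, in the 4 groups, with lines joining the points of 1 gene. All 6 genes have their highest mean in young My-HSCs and their lowest in old Ly-HSCs, which follows largely from choosing the 5 by that correlation.

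Endothelial markers were examined beside Fgd5, since endothelium also transcribes it. Of 10 such genes 9 had values, and their summed level was 32.0 to 34.5 FPKM in old My-HSCs, 21.5 to 33.3 FPKM in young My-HSCs, 5.42 to 17.6 FPKM in old Ly-HSCs and 20.8 to 34.5 FPKM in young Ly-HSCs. Like Fgd5, the sum was lowest in old Ly-HSCs. Unlike Fgd5, it overlapped between young My-HSCs and young Ly-HSCs. The part of these markers in the Fgd5 differences was not tested. Kdr, a vascular growth factor receptor, was at 2.48, 4.59 and 3.78 FPKM in old My-HSCs, against 0.427, 2.15 and 0.462 FPKM in old Ly-HSCs. In young mice Kdr was at 9.91, 1.35 and 1.06 FPKM in My-HSCs, against 0, 0 and 0.0526 FPKM in Ly-HSCs. Cldn5, a tight junction protein, was at 12.6, 14.9 and 4.94 FPKM in old My-HSCs and was listed at 0 in old Ly-HSCs. In young mice Cldn5 was at 0, 1.50 and 0.154 FPKM in My-HSCs and at 0, 0 and 1.44 FPKM in Ly-HSCs. Robo4, which HSCs also transcribe, was at 4.93, 11.1 and 15.1 FPKM in old Ly-HSCs and at 11.3 to 29.3 FPKM in the other 9 libraries. It made up the largest part of the summed level in every Ly-HSC library. Cdh5, the defining endothelial cadherin, was at 0 in 10 of the 12 libraries and at most 0.193 FPKM in old My-HSCs.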

How the data were processed

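RNA from sorted HSCs was made into stranded mRNA libraries (KAPA kit) and read as paired ends of 150 bases, per the labels' protocols. The deposited table holds FPKM per gene and library, normalized by the authors. Tools listed in the submitters' processing notes, with no role stated, were STAR, bcl2fastq 2.17 and DESeq2, with the build GRCm38 (mm10). No source used here gives the annotation or strand setting. Read totals are unknown. Fragments were estimated from the lowest values with GENCODE M21 exon lengths: 54.4% to 64.9% of low values lay within 0.1 of a whole number, so no counts were recovered. Exact zeros, 12.1% to 34.1% of genes a library, may be failed estimates.

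Genes with at least 1 FPKM in 3 of 12 libraries (10900 of 14143) were fitted as log2(FPKM + 1), which understates fold changes of low genes. limma 3.58.1, run in R 4.3.3, fitted one group-means model (variance trend, 8 residual and 5.11 prior degrees of freedom), with 7 contrasts, two-sided Benjamini-Hochberg adjustment over all tested genes and calls at an adjusted p under 0.05. The fit was tested on simulated data. The exact permutation test exchanged age labels within subsets and took all libraries as independent. Same-numbered libraries of the old groups deviated together (correlations of deviations 0.21 to 0.26, against -0.22 to 0.11 for different numbers). Same-numbered young pairs gave 0.00 to 0.05 and same-numbered pairs across ages -0.04 to 0.01. These correlations do not establish whether same-numbered libraries shared mice, in old or in young groups. The main model has no block, and the block fits cover all 12 libraries. The members and gene lists were chosen with earlier results of these data known. Named genes were all members, the 5 genes most correlated with Fgd5, and, from the wider list, genes among the 2 smallest p-values in each direction of the 4 age and subset contrasts. Alternatives were a pseudocount of 0.1, no filter, median-of-ratios and quantile scaling, a replicate block, 6-library fits and omission of each library.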

Additional observations from a re-analysis of the deposited data

How the results depend on the processing

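The subset difference of Fgd5 averaged over ages kept its call in every alternative run (0.94 to 0.99 when 1 library was left out). That in old mice kept its call under the other scalings, pseudocount and filter, but was 1.25 with adjusted p = 0.123 with the replicate block and 1.25 with adjusted p = 0.252 with a block within each age, which was chosen after seeing the data. No other call of a member changed with either block. Omissions of 1 library gave 1.22 to 1.28, and 1.22 with adjusted p = 0.132 without library 1 of every group, also chosen after seeing the data. Without the filter the age difference of Fgd5 was called, at -0.71 in Ly-HSCs (adjusted p = 0.0351) and at -0.42 over both subsets (adjusted p = 0.0303). The age difference of Fgd6 was -0.083 with quantile normalization and that of Cdc42bpb in the exact permutation test was -0.046 with median-of-ratios scaling, both against the opposite sign without them. Quantile normalization called Cdc42bpb between subsets (1.10, adjusted p = 0.0394). The causes were not tested.

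Counts of called members were 1 without the filter for age in Ly-HSCs and for age over both subsets, 2 between subsets over both ages after quantile normalization, and 0 between old subsets with either block. All called genes numbered 26 and 131 in those fits without the filter and 45 in that after quantile normalization. Over omissions, called members were 0 to 1 between old subsets, 0 to 2 between young subsets and 1 to 3 over both ages. All called genes were then 0 to 6, 0 to 299 and 15 to 111. Called members were 0 to 1 for age in Ly-HSCs and 0 to 1 for age over both subsets, where all called genes were 7 to 224 and 42 to 197.

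Counts of called genes moved more. For age in Ly-HSCs, 38 became 24 with median-of-ratios scaling, 14 with quantile normalization, 15 with the replicate block and 0 in the 6-library limma fit (844 at an unadjusted p under 0.05), and 7 to 224 over omissions, with 11 without library 1 of every group. For age in My-HSCs, 23 became 1 with the smaller pseudocount, 56 without the filter, 9 with the block and 37 with 6 libraries, and 0 to 36 over omissions, with 0 in the limma fit without library 1 of every group (895 at an unadjusted p under 0.05). Between young subsets, 13 became 22 with the smaller pseudocount, 2 without the filter, 4 with the block, 0 in the 6-library limma fit (689 at an unadjusted p under 0.05) and 0 in the limma fit with a block within each age (1574 at an unadjusted p under 0.05), and 0 to 299 over omissions, with 30 without library 1 of every group. Between old subsets, 3 became 1 with the smaller pseudocount, 29 without the filter, 8 after quantile normalization, 1 with the block, 12 with 6 libraries, 0 in the limma fit with a block within each age (462 at an unadjusted p under 0.05) and 0 in the limma fit without library 1 of every group (505 at an unadjusted p under 0.05), and 0 to 6 over omissions. Over both ages, 45 became 69 without the filter and 17 with a block within each age, and 15 to 111 over omissions. For age over both subsets the 92 became 42 to 197 over omissions and 38 without library 1 of every group. The interaction had 6 without the filter.

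Quantile normalization moved the median of all genes for age in Ly-HSCs to -0.01, against 0.18, on the log2 scale. Each group had 3 libraries, young Ly-HSC libraries 1 and 3 were the shallowest, and Fgd6 could be tested in only 9 of the 12 omissions, since it fell under the filter in the others.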
